A study of Mus musculus with 6 samples.

Results

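Late erythroblasts of mammals remove their mitochondria and other organelles, degrade much of their remaining protein, condense the nucleus and finally expel it. Mitochondria are tagged by receptors such as BNIP3L (NIX) and enclosed by autophagosomes, whose membranes carry lipid-linked proteins of the LC3 and GABARAP families. Ubiquitin enzymes that are induced late in the lineage remodel the proteome, and nuclear transport and chromatin factors prepare the nucleus for expulsion. The genes described here were 10 genes of this programme: Bnip3l, Ulk1, Gabarapl2, Map1lc3b, Foxo3, Trim58, Ube2o, Ube2l6, Xpo7 and Hdac2. They were chosen by name from the gene symbols of the table and not by their values, but with earlier results of these data known. All 10 were found among the 17463 genes of the table, and all 10 passed the filter on low counts that left 11277 genes for testing.

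The starting cells were fetal liver erythroblasts of C57BL/6J mice that did not yet carry TER119, a marker acquired late on the erythroid surface. They differentiated for 30 h under erythropoietin (Epo). The medium of the cholesterol group held 40 µM cholesterol, and the control group received none (described as untreated in the labels and as vehicle-treated in the study). TER119+ cells were then isolated by sorting, and polyadenylated RNA was sequenced from 3 control samples (C1 to C3) and 3 cholesterol samples (CHO1 to CHO3). The sources used here name no transgene and do not say whether the numbers mark separate cultures, litters or days, so p-values measure only the spread between these samples, which may be technical. The study describes its values given as mean and SD as coming from independent experiments, without tying this to the sequenced samples.

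Total counts were between about 19826800 and 20061700 per sample, and 3 counts, the smallest level taken as detectable, corresponded to at most 0.151 CPM (counts relative to library size). The erythroid identity of the samples was clear from 12 late erythroid genes such as Slc4a1 and Alas2, whose summed level lay between 76062 and 105587 CPM, against 45.0 to 702 CPM for 10 granulocyte genes and 13.7 to 126 CPM for 9 macrophage genes. Late erythroid, granulocyte, macrophage, mast cell and hepatocyte genes were each at their highest summed level in the sample numbered 3 within both groups. In bulk RNA, fewer cells of a type and less RNA per cell cannot be told apart.

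Promoters of 7 of the 10 genes had an entry in the RefSeq table of the build that the submitters name, GRCm38.p6. The 250 bases upstream of the start are shown for 3 examples, Trim58 with a GATA motif, Ube2l6 with none of the motifs searched and Gabarapl2 with GC boxes. Capitals mark matches to the motifs searched on both strands, which were the GATA motif (AGATA or TGATA, followed by A or G), the FOXO motif GTAAACA, the TFEB motif GTCACGTG, the sterol regulatory element TCACCCCAC, the interferon-stimulated response element (GAAA, any 2 bases and GAAA again) and the GC box CCGCCC. The marked matches did not overlap one another, and the window of Ube2l6 held none.
Trim58, chr11:58640215-58640464, plus strand: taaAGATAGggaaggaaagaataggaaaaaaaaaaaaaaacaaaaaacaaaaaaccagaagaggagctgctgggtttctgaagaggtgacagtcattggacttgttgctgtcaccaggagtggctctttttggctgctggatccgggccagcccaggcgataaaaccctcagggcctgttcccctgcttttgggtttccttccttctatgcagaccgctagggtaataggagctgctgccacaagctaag
Ube2l6, chr2:84798578-84798827, plus strand: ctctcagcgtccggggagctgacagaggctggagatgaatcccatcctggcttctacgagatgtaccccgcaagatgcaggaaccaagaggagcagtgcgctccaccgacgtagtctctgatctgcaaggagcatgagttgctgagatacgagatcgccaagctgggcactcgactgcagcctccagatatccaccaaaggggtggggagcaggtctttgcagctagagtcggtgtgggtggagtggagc
Gabarapl2, chr8:111940453-111940702, plus strand: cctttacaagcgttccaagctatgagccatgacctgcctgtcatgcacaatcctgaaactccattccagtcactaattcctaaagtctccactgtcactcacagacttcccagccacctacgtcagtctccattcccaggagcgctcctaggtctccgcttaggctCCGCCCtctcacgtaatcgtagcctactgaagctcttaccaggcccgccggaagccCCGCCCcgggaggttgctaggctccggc

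Trim58 was the only one of the 7 promoters with a GATA motif, AGATAG, whose first base lay 247 bases before the start, and 26.5% of the 32851 promoters in the table held one in the same window. The GC box was present upstream of Ulk1, Gabarapl2, Map1lc3b, Hdac2 and Foxo3, that is, 5 of the 7, against 32.7% of all promoters. None of the 7 held the FOXO motif (3.17% of all promoters), the TFEB motif (1.85%), the sterol regulatory element (0.496%) or the interferon element (2.98%), which says only that these letters were not in these windows.

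Cholesterol was compared with control for each gene by edgeR's quasi-likelihood test, with p-values adjusted over all 11277 genes. The model first held condition alone and was then blocked by replicate number, since same-numbered samples deviated together, clearly so in pairs 1 and 3. In pair 2 the deviations from group means correlated at 0.322, hardly above the 0.321 of C1 with CHO2. With condition alone the adjusted p was 0.9998 for each of the 10 genes and for each further gene named below. None of the 10 genes passed an adjusted p of 0.05 there, where 0.00887% of all genes did (1 gene), and none passed with the replicate block, where 6.85% of all genes did. DESeq2 also called 0 of the 10, against 0.275% of all genes. At an unadjusted p under 0.05, again 0 of the 10 were found in either model, against 2.63% of all genes with condition alone and 19.6% with the block. For none of the 10 genes did the 3 values of one group lie entirely above those of the other, which was the case for 8.0% of all genes (cholesterol higher for 3.72% and lower for 4.28%). The median log2 fold change of the 10 genes was 0.04, and 0.02 with the block, beside 0.01 in both models over all genes tested. An exact two-sided permutation test of each gene gave p between 0.5 and 1, where 3 samples against 3 can give no p below 0.1.

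**Figure D1:**
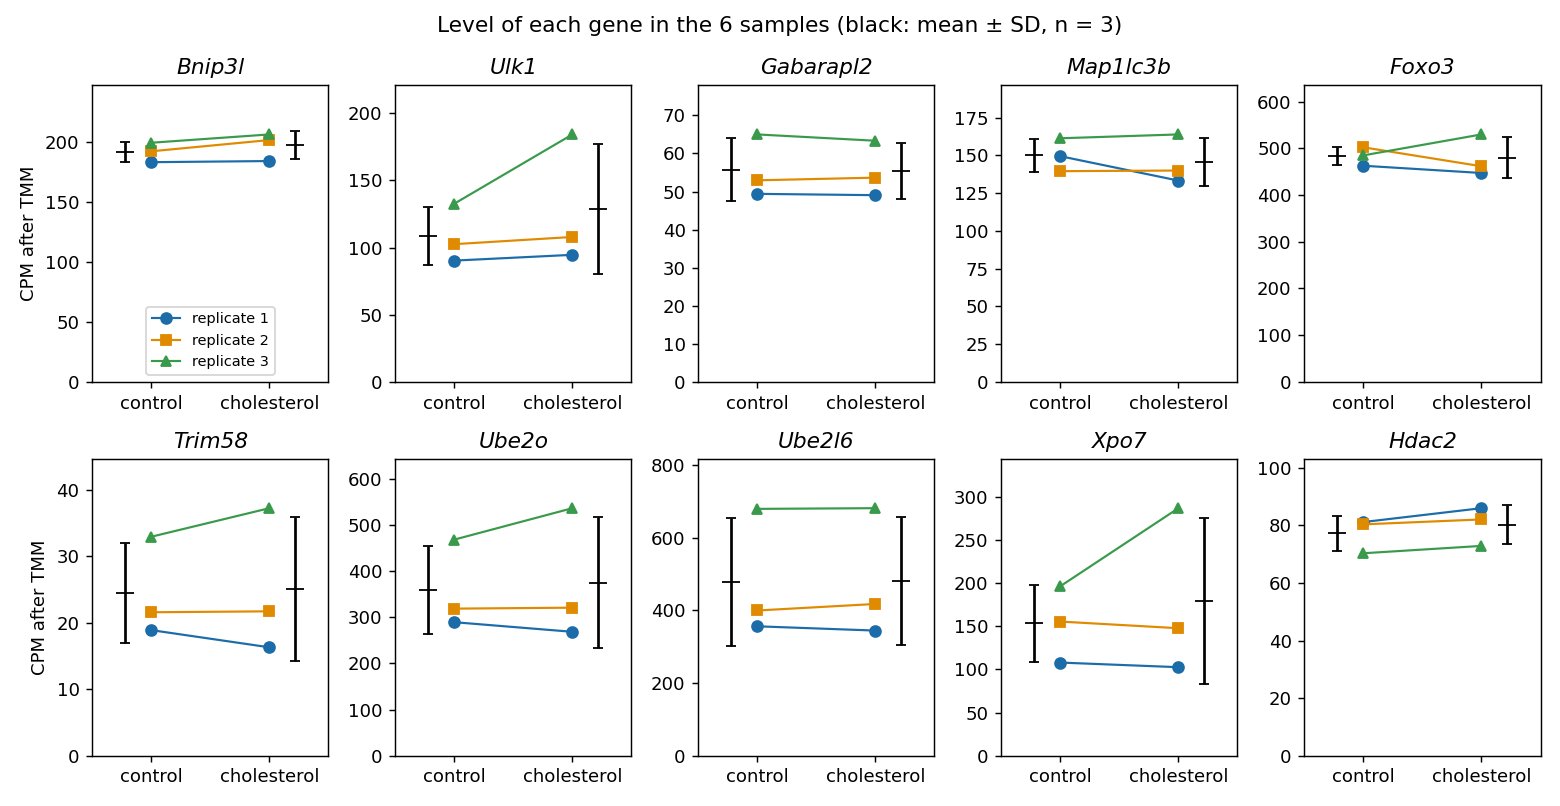
CPM after TMM normalization of the 10 genes in control and cholesterol samples, with lines joining same-numbered samples and the mean ± SD (n = 3) in black. The 2 groups overlapped for every gene, and the samples numbered 3 stood highest for 7 genes and lowest for Hdac2.

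The mitophagy receptor and the autophagy genes were at closely similar levels in both groups, apart from Ulk1 in 1 sample. Bnip3l (chromosome 14, 66985238 to 67008877, GRCm38.p6) encodes the mitochondrial outer membrane receptor that recruits LC3 and GABARAP proteins in reticulocytes. It measured 183, 192 and 199 CPM in C1 to C3 and 184, 201 and 206 CPM in CHO1 to CHO3. Bnip3l was higher with cholesterol in all 3 same-numbered pairs, but only by 0.01, 0.07 and 0.05 on the log2 scale. Its log2 fold change was 0.04 (standard error 0.07), with an adjusted p of 0.66 in the blocked model, and with the block the 95% interval of the fold ran from 0.968 to 1.09.

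Ulk1 (chromosome 5, 110784489 to 110810120), the kinase that starts autophagosome formation, measured 90.3, 103 and 133 CPM in C1 to C3 and 94.6, 108 and 184 CPM in CHO1 to CHO3. The cholesterol sample numbered 3 stood above the other 5, and its partner was the highest control sample. Within pairs, the difference was 0.07, 0.07 and 0.47 on the log2 scale, so that most of the mean difference came from a single pair. The log2 fold change was 0.25 (standard error 0.28) with condition alone and 0.21 (standard error 0.09, block adjusted p = 0.276) when blocked, the largest of the 10 genes in both models. The 95% interval of the fold, 0.746 to 1.89 with condition alone and 0.993 to 1.35 with the block, did not exclude 1. Without cholesterol sample 3 the log2 fold change with condition alone was −0.10. Whether the effect differed between pairs could not be tested, because each number occurs once in each group.

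Gabarapl2 (chromosome 8, 111940703 to 111952915) and Map1lc3b (chromosome 8, 121590438 to 121598760) encode 2 of the proteins that are coupled to lipid on the autophagosome membrane. Gabarapl2 measured 49.4, 52.9 and 65.0 CPM in C1 to C3 and 49.0, 53.6 and 63.3 CPM in CHO1 to CHO3. Its values followed the replicate number and hardly differed within a pair. The log2 fold change was −0.01 (standard error 0.14), with an adjusted p of 0.949 in the blocked model. Map1lc3b, which encodes LC3B, measured 149, 140 and 161 CPM in C1 to C3 and 133, 140 and 164 CPM in CHO1 to CHO3. It was lower with cholesterol by 0.17 on the log2 scale in pair 1 and nearly equal in pairs 2 and 3. Its log2 fold change was −0.04 (standard error 0.10), with an adjusted p of 0.67 in the blocked model. With the block, the 95% interval of the fold ran from 0.922 to 1.07 for Gabarapl2 and from 0.905 to 1.04 for Map1lc3b.

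Foxo3 (chromosome 10, 42181845 to 42276695) encodes a transcription factor that is known to activate antioxidant, autophagy and mitochondrial clearance genes in maturing erythroblasts. It measured 463, 502 and 485 CPM in C1 to C3 and 447, 461 and 530 CPM in CHO1 to CHO3. The direction was mixed, lower with cholesterol in pairs 1 and 2 (−0.05 and −0.12 on the log2 scale) and higher in pair 3 (0.13). The log2 fold change was −0.01 (standard error 0.08), with an adjusted p of 0.914 in the blocked model, and the 95% interval of the fold with the block ran from 0.924 to 1.06.

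**Figure D2:**
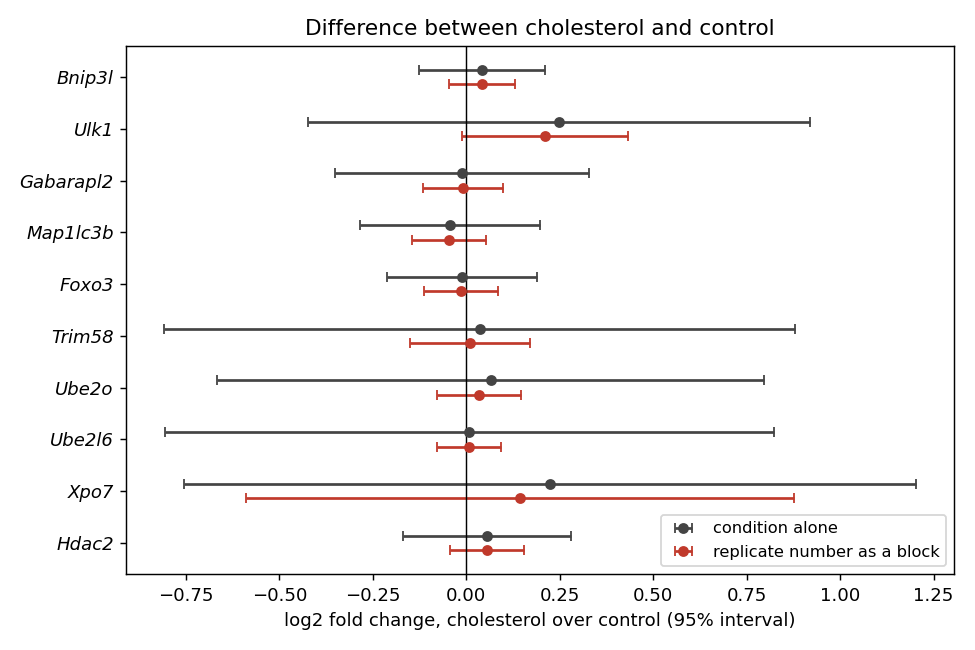
Log2 fold change of each gene, cholesterol over control, with its 95% interval from edgeR's test, with condition alone (grey) and blocked by replicate number (red). Every interval included 0, and the intervals of Trim58, Ube2o and Ube2l6 narrowed most with the block.

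The ubiquitin genes differed widely between samples and hardly between treatments. Trim58 (chromosome 11, 58640465 to 58652404) encodes an erythroid E3 ligase whose known target is the motor protein dynein. It measured 18.9, 21.6 and 33.0 CPM in C1 to C3 and 16.3, 21.7 and 37.3 CPM in CHO1 to CHO3. Both samples numbered 3 lay above the other 4, while within pairs the difference was −0.21, 0.01 and 0.18 on the log2 scale. Its log2 fold change was 0.04 (standard error 0.35), and 0.01 (standard error 0.08, adjusted p = 0.965) with the block.

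Ube2o (chromosome 11, 116537740 to 116581503), a ubiquitin-conjugating enzyme that is known to mark ribosomal proteins for degradation in reticulocytes, measured 289, 319 and 468 CPM in C1 to C3 and 268, 321 and 536 CPM in CHO1 to CHO3. As for Trim58, it was lower with cholesterol in pair 1 (−0.11), nearly equal in pair 2 (0.01) and higher in pair 3 (0.20). The log2 fold change was 0.06 (standard error 0.30), and 0.03 (standard error 0.05, adjusted p = 0.793) with the block. Ube2l6 (chromosome 2, 84798828 to 84810003) encodes the conjugating enzyme for the ubiquitin-like protein ISG15 and measured 356, 399 and 679 CPM in C1 to C3 and 344, 417 and 681 CPM in CHO1 to CHO3. Samples of the same number were almost equal, with differences of −0.05, 0.06 and 0.00404 on the log2 scale. Its log2 fold change was 0.01 (standard error 0.34), with an adjusted p of 0.958 in the blocked model. The 95% interval of its fold ran from 0.572 to 1.77 with condition alone and from 0.947 to 1.07 with the block.

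Of the nuclear genes, Xpo7 (chromosome 14, 70662126 to 70770864) encodes a nuclear exportin with a known role in releasing histones from the erythroblast nucleus. It measured 108, 156 and 197 CPM in C1 to C3 and 103, 148 and 287 CPM in CHO1 to CHO3. The cholesterol sample numbered 3 was the highest of all 6, by 0.55 on the log2 scale over its partner, whereas cholesterol samples 1 and 2 lay below theirs by 0.07 each. The log2 fold change was 0.22 (standard error 0.40), 0.14 (standard error 0.20, adjusted p = 0.798) with the block and −0.29 with condition alone and without cholesterol sample 3. The 95% interval of the fold, 0.665 to 1.84 with the block, was the widest of the 10 genes.

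Hdac2 (chromosome 10, 36974297 to 37001889) encodes a class I histone deacetylase that takes part in chromatin condensation before enucleation. It measured 81.2, 80.4 and 70.3 CPM in C1 to C3 and 86.0, 82.1 and 72.9 CPM in CHO1 to CHO3. Hdac2 was higher with cholesterol in all 3 pairs, by 0.08, 0.03 and 0.05 on the log2 scale, and lowest in the samples numbered 3. Its log2 fold change was 0.06 (standard error 0.09), and 0.06 (standard error 0.05, adjusted p = 0.584) with the block. Bnip3l, Ulk1 and Hdac2 were thus the 3 of 10 genes that were higher in all 3 pairs, and 0 of 10 were lower in all 3, where 19.9% of all genes were higher and 20.1% lower. From the FPKM values (counts scaled by gene length and library total, as the authors' normalized values were read), a comparison added after seeing the data, 4 of the 10 were higher in all 3 pairs, against 27.8% of all genes.

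The difference between numbers 3 and 1 was larger than that between treatments in the model with the block for all 10 genes, as it was for 79.8% of all genes. This comparison was made after the values were seen. Both samples numbered 3 lay above the other 4 for 7 of the 10 genes, namely Ulk1, Gabarapl2, Map1lc3b, Trim58, Ube2o, Ube2l6 and Xpo7, against 26.2% of all genes. The largest differences belonged to the ubiquitin genes and Xpo7. Relative to number 1, the samples numbered 3 were 2.28-fold higher for Xpo7, 1.99-fold for Trim58, 1.94-fold for Ube2l6, 1.80-fold for Ube2o and 1.70-fold for Ulk1. Gabarapl2 was 1.30-fold, Map1lc3b 1.15-fold, Foxo3 1.12-fold and Bnip3l 1.1-fold higher, and Hdac2 was lower, at 0.857-fold. A test of the replicate number in that model passed an adjusted p of 0.05 for 7 of the 10 genes, against 46.3% of all genes (19.5% of all genes both passed and had both samples numbered 3 on top). The adjusted p was 2.26e-11 for Ube2l6, 1.95e-07 for Trim58, 2.32e-07 for Ube2o, 0.000154 for Gabarapl2, 0.00414 for Ulk1, 0.00569 for Map1lc3b and 0.00828 for Hdac2. Bnip3l (0.0711), Foxo3 (0.0868) and Xpo7 (0.105) did not pass.

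**Figure D3:**
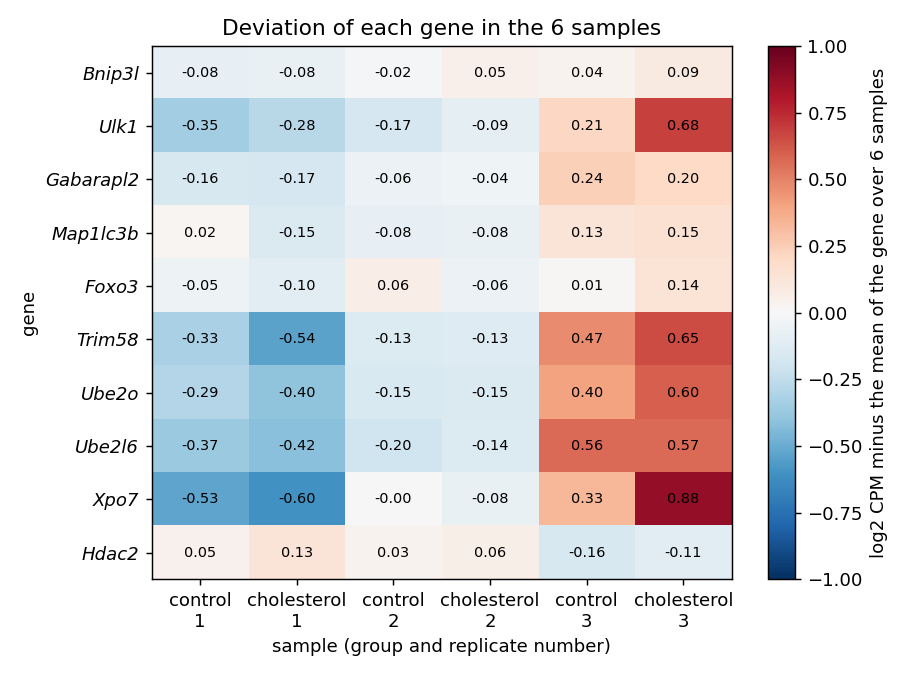
Log2 CPM of each gene minus its mean over the 6 samples, with same-numbered control and cholesterol samples side by side. Trim58, Ube2o, Ube2l6, Ulk1 and Xpo7 were low in both samples numbered 1 and high in both numbered 3, and Hdac2 ran the other way.

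Averaged over the 10 genes, log2 CPM stood at 6.97, 7.11 and 7.41 in C1 to C3 and 6.92, 7.12 and 7.57 in CHO1 to CHO3. The samples numbered 3, where this mean was highest, also held the highest summed levels of 12 late erythroid genes (105587 CPM in control and 102874 CPM with cholesterol) and the highest share of adult globin counts (17.9% and 16.2%, against 12.5% to 14.6% in the other 4). Globin genes made up 73.2% to 76.7% of that sum, so that both measures largely hold the same counts. The other 10 genes of the list summed to 24734.5 and 24646.3 CPM in C3 and CHO3, against 20383.6 to 22246.1 CPM in the other 4. Beside the 46.3% of all genes that passed the test of the replicate number, 10 of the 12 late erythroid genes passed it with a higher level in number 3 than in number 1, and Klf1, an erythroid transcription factor, passed with a lower one. Gata1, the master regulator of the lineage, did not pass. The 10 granulocyte genes summed to 702 and 299 CPM in control and cholesterol sample 3, against 71.6 and 45.0 CPM in samples 1, and 9 of the 10 passed that test. The 5 hepatocyte genes summed to 257 and 223 CPM in C3 and CHO3, against 65.7 to 199 CPM in the other 4, and 3 of the 5 passed it, 2 with a higher and 1 with a lower level in number 3 than in number 1. The part of these cells in the level of the 10 genes was not tested. Zc3hav1, Cdr2 and Cnppd1 were the 3 of 7234 other genes with at least 10 CPM whose 6 mean-centred log2 values lay nearest to the mean of the 10 genes. Their Euclidean distances were 0.0665, 0.0672 and 0.0695.

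Levels of different genes were compared per length, on the FPKM values. Ube2l6 was the highest of the 10 genes, at 338 ± 116 FPKM in control and 347 ± 120 FPKM with cholesterol (SD, n = 3), and its lowest sample stood above the highest sample of every other one. It was followed by Map1lc3b (85.4 FPKM over the 6 samples), Ube2o (80.0) and Foxo3 (68.6), of which neighbours in the order overlapped in their samples. Bnip3l (59.6 FPKM) and Gabarapl2 (56.9) came next and overlapped each other. Hdac2 (38.9 FPKM), Xpo7 (32.6) and Ulk1 (22.7) also overlapped from one to the next. Trim58 was the lowest, at 10.8 ± 3.06 FPKM in control and 11.3 ± 4.67 FPKM with cholesterol (SD, n = 3), with its highest sample at 16.5 FPKM below the lowest of Ulk1 at 17.1. Counts of Ube2l6 and Xpo7 were not whole numbers in any of the 6 samples, and those of Gabarapl2 and Foxo3 not in 2, so that some of their reads were shared out between genes.

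Some of the genes stood above all the relatives examined and others did not. The relatives were picked by family and not by value, after the values of the 10 genes were seen. Foxo3 stood at 68.6 FPKM against 11.8 for Foxo4 and 0.565 for Foxo1, and Ulk1 at 22.7 FPKM against 2.25 for Ulk2. Map1lc3b was 9.71-fold above Map1lc3a (8.79 FPKM). By contrast Gabarap, at 224 FPKM, was above Gabarapl2 in all 6 samples, Hdac1 (68.2 FPKM) was above Hdac2, and the general exportin gene Xpo1 (78.9 FPKM) was above Xpo7. Gabarapl2 in turn was above Gabarapl1 (40.3 FPKM), Hdac2 above Hdac3 (22.7 FPKM) and Hdac8 (1.68 FPKM), and Xpo7 above Xpo4 (13.4 FPKM), each in all 6 samples. Bnip3, the other BNIP3-type mitophagy receptor and a known hypoxia target, measured 22.4, 20.9 and 7.41 FPKM in C1 to C3 and 28.2, 20.3 and 5.68 FPKM in CHO1 to CHO3. It was thus lowest in the samples numbered 3, where Bnip3l was not, and its log2 difference between numbers 3 and 1 was −1.90 (adjusted p = 0.000147 for the replicate number). None of the 12 relatives examined passed an adjusted p of 0.05 for cholesterol in either model, the smallest with the block being 0.281, for Foxo4.

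**Figure D4:**
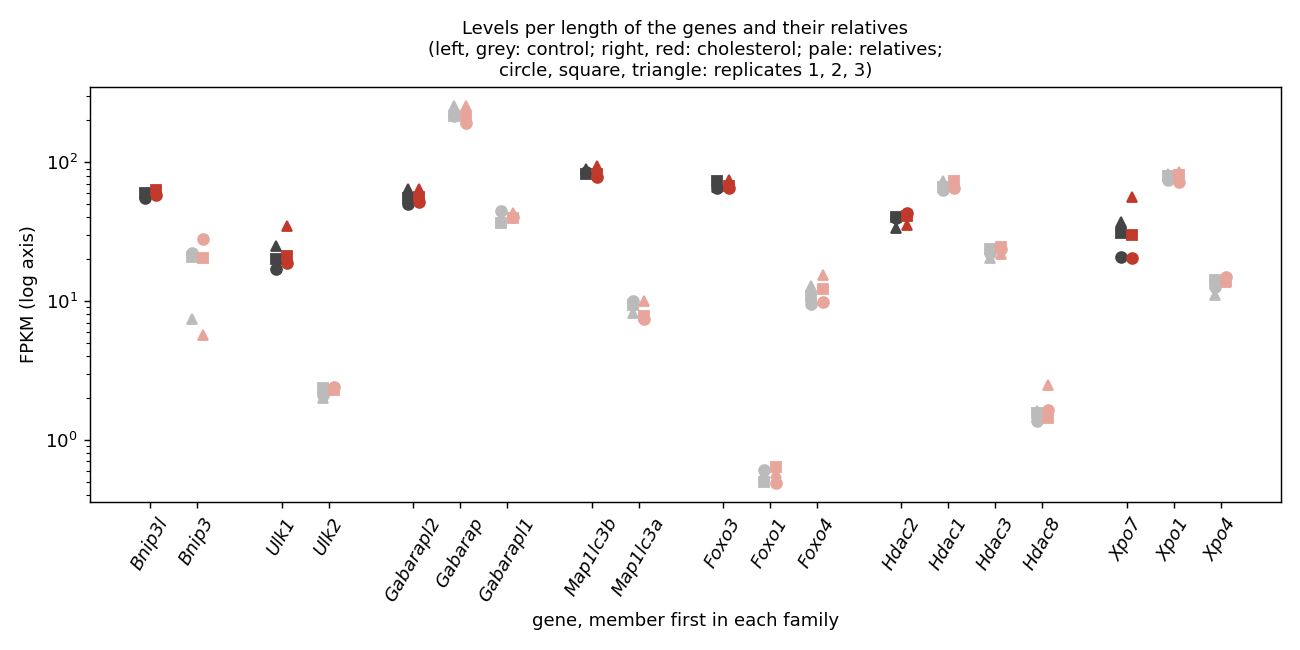
FPKM (log axis) of 7 of the genes and of their family relatives in the 6 samples, control on the left and cholesterol on the right of each name. Foxo3, Ulk1, Map1lc3b and Bnip3l stood above the relatives shown, whereas Gabarapl2 lay below Gabarap, Hdac2 below Hdac1 and Xpo7 below Xpo1.

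Genes around the 10 were examined in 7 lists that together held 140 tested genes, of which 0 passed with condition alone and 6, or 4.29%, with the block, beside 6.85% of all genes. The genes that passed belonged to 3 of the lists, and Rac2 was the only one of the 6 that also passed in DESeq2 with the block and in each blocked fit without 1 of the pairs. Of 18 genes of the enucleation cytoskeleton, 1 was called higher and 2 were called lower with the block (6.85% of all genes in either direction), and the list's median with condition alone was −0.07 on the log2 scale. Myh10, which encodes the non-muscle myosin heavy chain IIB that is required for enucleation, measured 108, 121 and 108 CPM in C1 to C3 and 135, 135 and 125 CPM in CHO1 to CHO3. It rose by 0.23 on the log2 scale (standard error 0.05, block adjusted p = 0.00387), and all 3 cholesterol samples lay above all 3 control samples. Without pair 1 its block adjusted p was 0.0778. Rac2, a blood cell GTPase that acts with Rac1 in forming the contractile ring, measured 197, 184 and 181 CPM in C1 to C3 and 172, 163 and 138 CPM in CHO1 to CHO3. It fell by 0.25 on the log2 scale (standard error 0.05, block adjusted p = 0.00242), with no overlap between the groups.

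Vim, which encodes the intermediate filament protein vimentin that erythroblasts lose before enucleation, measured 14.4, 25.9 and 91.0 CPM in C1 to C3 and 11.4, 14.5 and 43.8 CPM in CHO1 to CHO3. It fell by 0.82 on the log2 scale (standard error 0.13, block adjusted p = 0.0272, and 0.404 without pair 2). Genes of other blood cells and of earlier erythroid stages were lower in the same comparison. With the block, which called 6.85% of all genes, 9 of 10 granulocyte genes were called lower with cholesterol (control 71.6 to 702 CPM in sum, cholesterol 45.0 to 299 CPM), as were 5 of 8 tested macrophage genes (18.5 to 126 CPM against 13.7 to 57.8 CPM) and both tested mast cell and basophil genes (1.74 to 18.4 CPM against 0.554 to 3.03 CPM for all 7 of that list). Of 6 early erythroid and progenitor genes, 5 were also called lower with the block (Kit, Gata2, Cd34, Cd44 and Tfrc). The list had a median of −0.66 on the log2 scale with condition alone. It summed to 2717 to 3327 CPM in control and 2532 to 2938 CPM with cholesterol. Most of this sum was Tfrc alone, at 2586 to 3219 CPM in control and 2449 to 2848 CPM with cholesterol. Kit, Gata2 and Cd34 were at low levels, between 1.01 and 11.9 CPM in every sample. Of the 12 late erythroid genes, 9 had a fitted log2 fold change below 0 and 3 above it, beside 52.1% of all genes above 0. The median of that list was −0.07 with condition alone. Alas2 of the late erythroid genes, and Itga2b of the 5 megakaryocyte genes, were called lower with the block. No granulocyte or macrophage gene of the lists was at 0 in any sample, whereas 5 of the 7 mast cell and basophil genes were at 0 in at least 1, among them Mcpt8 in CHO1. The part of all these cells in the lower level of Vim and Rac2 was not tested.

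Of 17 tested Foxo factors and known Foxo targets, 1 was called higher and 1 lower with the block, again beside 6.85% of all genes, and the list had a median log2 fold change of −0.01. Txnip, which encodes a thioredoxin-binding protein, measured 94.0, 118 and 151 CPM in C1 to C3 and 99.4, 138 and 198 CPM in CHO1 to CHO3, and it rose by 0.24 on the log2 scale (standard error 0.05, block adjusted p = 0.0143). Klf6, a zinc finger factor, fell by 0.24 (standard error 0.05, block adjusted p = 0.00916), from 63.4 ± 11.9 to 53.8 ± 12.9 CPM (SD, n = 3). Without pair 3 the log2 fold change of Txnip was 0.15 and its block adjusted p 0.0504, and without pair 2 they were 0.24 and 0.113, while the adjusted p of Klf6 was 0.143 without pair 1 and 0.137 in DESeq2 with the block. The groups overlapped for both, and both were at their highest in the samples numbered 3 within each group.

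The list of the CTLH ubiquitin ligase, which works with the conjugating enzyme UBE2H in late erythroblasts, and of the ISG15 pathway around UBE2L6 had 1 of 15 genes called with the block, beside 6.85% of all genes. This was Usp18, the protease that removes ISG15 from its targets. Usp18 measured 21.7, 37.3 and 101 CPM in C1 to C3 and 27.1, 41.4 and 113 CPM in CHO1 to CHO3, and rose by 0.20 on the log2 scale (standard error 0.06, block adjusted p = 0.0313). The call was lost in DESeq2 with the block (adjusted p = 0.361) and in the blocked fits without pair 1 (0.179), pair 2 (0.0821) or pair 3 (0.0612). Its difference between numbers 3 and 1, 2.14 on the log2 scale, was far larger than that between treatments, and the direction of the former was that of Ube2l6.

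No gene was called in either model among 40 genes of the autophagy and mitophagy machinery (median log2 fold change 0.03), 9 tested dynein subunits (0.01), 23 nuclear transport receptors (0.02) and 20 genes of class I deacetylases and their complexes (0.05), where 0.00887% of all genes were called with condition alone and 6.85% with the block. At an unadjusted p under 0.05 with condition alone there was 1 gene in the first of these lists and 0 in the other 3, beside 2.63% of all genes. The autophagy gene with the smallest p with the block was Calcoco1, a selective autophagy receptor, with a log2 fold change of 0.27 (adjusted p = 0.0748), followed by Sqstm1, which encodes the receptor p62, with one of 0.12 (adjusted p = 0.145). Both had higher values with cholesterol in 3 of 3 pairs, whereas Optn, which encodes the receptor optineurin and came next, had lower ones in 3 of 3 pairs (log2 fold change −0.12, adjusted p = 0.158). The deacetylase list had 18 of 20 genes with a fitted log2 fold change above 0, beside 52.1% of all genes. As genes measured in the same 6 samples are not independent, this count was not tested for the list. Its smallest p with the block belonged to Rcor1, the CoREST corepressor, at 0.15 (adjusted p = 0.102), followed by Chd4, the NuRD remodelling ATPase, at 0.12 (adjusted p = 0.105).

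**Figure D5:**
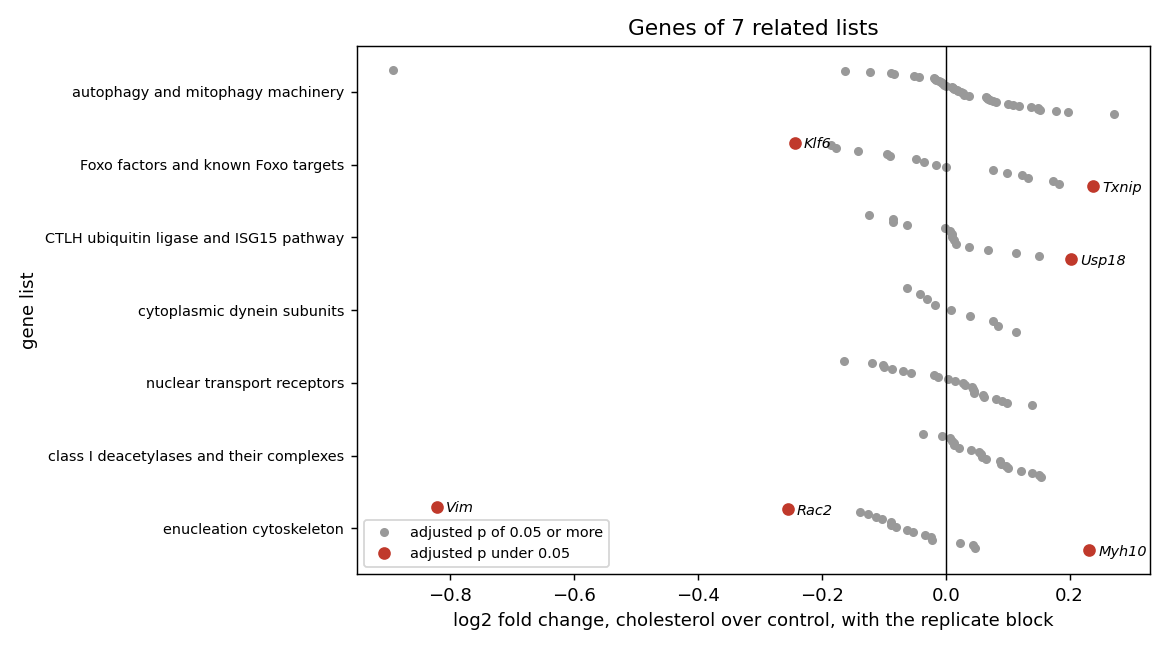
Log2 fold change with the replicate block for each tested gene of 7 lists, cholesterol over control, with genes past an adjusted p of 0.05 in red. The genes that passed were Txnip, Usp18 and Myh10, which were higher with cholesterol, and Klf6, Rac2 and Vim, which were lower.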

How the data were processed

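RNA-seq of 3 control and 3 cholesterol samples was analysed. The authors deposited expected counts per gene, estimated counts without normalization of which 27.9% to 29.5% were not whole in a sample, and normalized values with no unit named. The deposited normalized values were read as FPKM, since for 93.9% of 8748 genes the length that count, total and value imply lay between 0.8 times the shortest and 1.1 times the longest GENCODE M21 transcript of the symbol. The submitters' processing notes name HISAT2 2.0.4, Bowtie2 2.2.5, RSEM 1.2.12, DESeq2 1.4.5 and GRCm38.p6. The strand setting and filters are not given in the sources used here.

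Counts were rounded and tested with edgeR 4.0.16 in R 4.3.3 (filterByExpr with at least 10 counts in enough samples and 15 in total, TMM, robust quasi-likelihood test, Benjamini-Hochberg adjustment). Intervals are 95% from the same test. Pairing comes from the numbers 1 to 3 in the sample titles. Across genes, deviations from group means correlated at 0.71, 0.322 and 0.812 within pairs 1 to 3 and between −0.78 and 0.321 across numbers, the highest for C1 with CHO2, so that pair 2 stood apart from that crossing by almost nothing. As all 3 exceeded 0.1, the block was used beside the main model. No 2 samples were copies (chi-square per degree of freedom of at least 8.20). The alternatives were DESeq2 1.42.0, RLE factors, 2 other filters, limma 3.58.1 on log2(FPKM + 1) or log2(FPKM + 0.1), and samples left out. DESeq2 with the block and pairs left out were chosen after seeing the data. The fits were tested on simulated data.

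The 10 genes and all lists were chosen with earlier results of these data known. Named besides the 10 are the genes nearest to their mean pattern and, from the up to 4 genes with the smallest p with the block in each list, those that passed and the first 3 of the autophagy and first 2 of the deacetylase list. Relatives and the marker genes of late and early erythroid stages and of other cell types lie outside this rule and were named after their values were seen.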

Additional observations from a re-analysis of the deposited data

How the results depend on the processing

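None of the 17 alternatives called any of the 10 genes, and the smallest adjusted p of any was 0.118, for Ulk1. The deacetylase list also had 0 calls throughout. The replicate block changed no call of the 10 genes. It called 3 genes in the enucleation cytoskeleton list, 2 in the Foxo list and 1 in the CTLH and ISG15 list, against 0 with condition alone, and 772 against 1 gene in all. DESeq2 with the block called 3, 1 and 0 genes in these lists and 289 in all, and DESeq2 without it 31. Without C3 there were 8 calls in all, without CHO3 2, and with the block and 1 number left out between 296 and 821. With samples or pairs left out, calls ranged from 0 to 3 in the cytoskeleton list, from 0 to 2 in the Foxo list, and from 0 to 1 in the CTLH and ISG15, autophagy, dynein and nuclear transport lists. The median log2 fold change of the 10 genes then ranged from −0.12 (without cholesterol sample 3) to 0.21 (without control sample 3), and was −0.04 without control sample 1 and 0.15 without cholesterol sample 1.

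With all 6 samples, the sign turned for Foxo3 (0.0168 and 0.0170 in the limma fits with pseudocounts of 1 and 0.1), Gabarapl2 (0.0209 and 0.0213) and Trim58 (−0.00400 in DESeq2 with the block). With samples or pairs left out, the log2 fold change ranged from −0.10 to 0.43 for Ulk1, from −0.12 to 0.11 for Gabarapl2, from −0.13 to 0.0176 for Map1lc3b, from −0.0874 to 0.0394 for Foxo3, from −0.36 to 0.31 for Trim58, from −0.28 to 0.30 for Ube2o, from −0.32 to 0.35 for Ube2l6, from −0.29 to 0.50 for Xpo7 and from −0.00756 to 0.12 for Hdac2. The cause of these shifts was not tested. Bnip3l kept its sign in all 17 alternatives but ranged from 0.0127 to 0.0908 there.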
